A study of Mus musculus with 33 samples.

Results

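The transcripts of 7 subunits of the GABA-A receptor, Gabra2, Gabra3, Gabra4, Gabra5, Gabrb1, Gabrb2 and Gabrd, were followed through RNA-Seq libraries of mouse frontal cortex. They were chosen by symbol, and all 7 were found among the 23366 genes of each of 2 count tables and passed the filter on low counts in both. The animals were C57BL/6 offspring of about 1 month of age. Dams, and later dams with their pups, were kept in whole-body chambers that carried clean filtered air, the aerosol of an e-cigarette whose liquid held nicotine at 13 to 16 mg/mL, or such an aerosol free of nicotine. These groups are called air, nicotine and no nicotine. The libraries numbered 6 air, 5 nicotine and 5 no nicotine in females and 6 air, 6 nicotine and 5 no nicotine among those labelled male, with 1 pup taken per litter. The exposed groups differ from air in the whole inhaled aerosol and not in nicotine alone, since no group received nicotine without the aerosol. The sexes were sequenced in separate runs, so sex and run cannot be told apart. The male nicotine library of replicate 21 held 215 CPM of Xist and 1 read of the Y-linked genes counted, against at most 0.253 CPM and at least 2140 reads in the other libraries labelled male (CPM is the usual measure of a gene's reads relative to its library's total, here after TMM normalization, which scales libraries to one another). It is kept under its label. Leaving it out changed no call of a member in any comparison of males or between the sexes, and values without it are given for Gabra3 and Gabra5.

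GABA-A receptors are chloride channels built of 5 subunits that open when they bind GABA, the main inhibitory transmitter of the cortex. Most hold α and β subunits, between which GABA binds, together with a γ or a δ subunit. Receptors with γ subunits are mostly anchored at synapses and give brief inhibition, whereas receptors with the δ subunit lie outside synapses and give a steady, tonic inhibition. The α subunit sets much of the speed, location and drug sensitivity of a receptor, and in rodents the mix of α subunits shifts in the weeks after birth.

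In the mm9 build, 3 of the 7 genes lay on chromosome 5. These were Gabra2 (chr5:71352296-71487088, minus strand), Gabra4 (chr5:71960973-72049547, minus) and Gabrb1 (chr5:72091171-72529628, plus), and Gabrg1 lay on the same chromosome. Gabrb2 (chr11:42233259-42446092, plus) lay on chromosome 11. Gabra5 (chr7:64663060-64765379, minus) shared chromosome 7 with Gabrg3. Gabra3 (chrX:69678020-69902187, minus) shared the X chromosome with Gabre and Gabrq. Gabrd (chr4:154759089-154772221, minus) lay on a chromosome with none of the other 6. Gabra5 overlapped the annotated gene Gm9962 on the opposite strand, and whether the counting used strand was not given in the sources used here. Of all stretches of 50 bases in the transcripts, 0.474% in Gabra2 and 0% in the other 6 also occurred in another gene.

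The sequences upstream of Gabra3, the subunit that fell in 3 of the 4 comparisons with air, and of Gabrb2, the most abundant of the 7 by CPM, which was called in none, are shown so that a subunit with many calls can be set beside one with none. They are the 250 bases before the first RefSeq start (GRCm38.p6, chrX:72656920-72657169, minus strand, and chr11:42420190-42420439, plus strand), 5′ to 3′. Capitals mark a GC box, which is GGGCGG on either strand. Capitals also mark a TATA match, which is TATAAA on either strand.
Gabra3: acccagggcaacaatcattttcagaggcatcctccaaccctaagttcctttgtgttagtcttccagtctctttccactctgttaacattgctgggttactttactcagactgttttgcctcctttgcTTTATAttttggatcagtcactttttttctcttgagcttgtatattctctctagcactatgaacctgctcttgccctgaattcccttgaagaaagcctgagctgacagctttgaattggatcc
Gabrb2: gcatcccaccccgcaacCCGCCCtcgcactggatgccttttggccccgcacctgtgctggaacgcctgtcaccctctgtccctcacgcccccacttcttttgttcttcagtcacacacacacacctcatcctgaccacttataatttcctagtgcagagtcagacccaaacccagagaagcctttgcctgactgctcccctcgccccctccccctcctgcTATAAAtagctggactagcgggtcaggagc
The Gabra3 window held 0 CG dinucleotides, 1 TATA match and no GC box, and 7.87% of 32851 such windows held no CG. The Gabrb2 window held 8 CG dinucleotides, 1 GC box and 1 TATA match. Among all windows 32.7% held a GC box and 12.4% a TATA match, and the median number of CG dinucleotides was 6. The first windows of the other members in the table held 18 CG dinucleotides in Gabra2, 12 in Gabra4, 9 in Gabra5 and 18 in Gabrb1, with a GC box in Gabra2 and Gabra4 and no TATA match in these 4. Gabrd was not found in that table. These matches are descriptions of the letters in the window.

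In air, all 7 transcripts were well counted, with 376 to 11106 reads per library over all groups. Compared per kilobase of exon, the order of the means was the same in both sexes. In air females it ran from Gabra3 (46.4 ± 2.86 CPM per kb, SD, n = 6) through Gabrb2 (43.1 ± 3.70), Gabra4 (40.0 ± 4.35), Gabrd (32.2 ± 4.69), Gabra5 (19.8 ± 2.09) and Gabra2 (14.5 ± 0.881) to Gabrb1 (7.59 ± 0.449). Neighbours from Gabra3 to Gabrd overlapped in range, while Gabra5, Gabra2 and Gabrb1 each lay below the gene before them in every library. In air males Gabra3 reached 41.9 ± 1.80 CPM per kb (n = 6) and Gabrb1 8.06 ± 0.661, and there the lowest Gabra5 library (17.3) was also below the highest Gabra2 library (17.4).

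**Figure D1:**
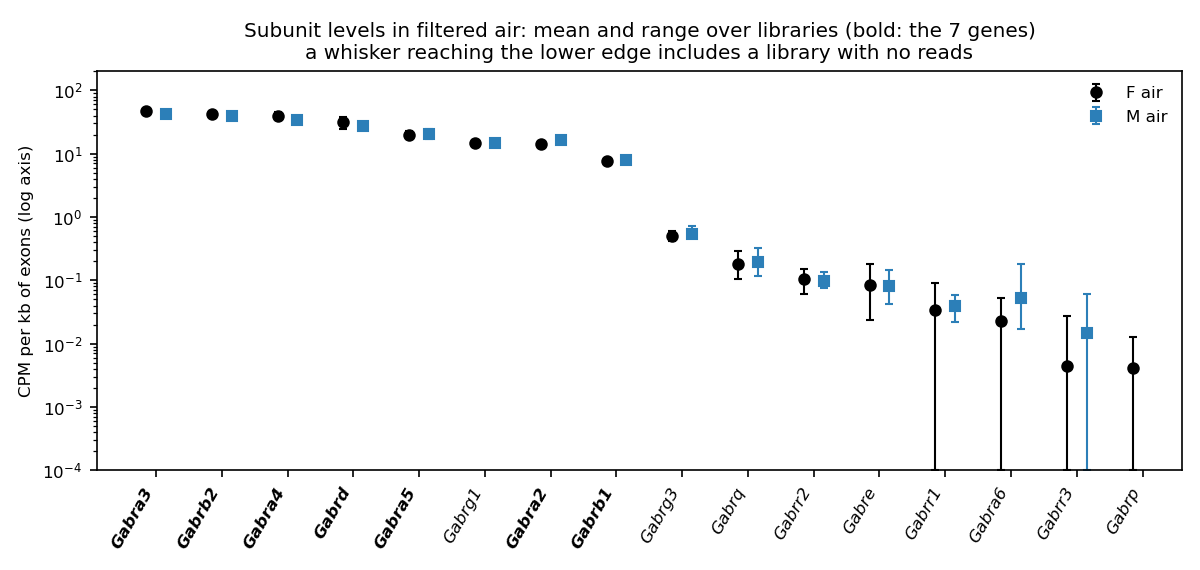
Mean CPM per kilobase of exon (log axis) of 16 GABA-A subunit genes in the air groups, with whiskers from the lowest to the highest library. The 7 genes, in bold, lie between 7.59 and 46.4 in females, and Gabrp has no male point because it had no reads in air males.

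Against air, the members leaned downward in 3 of the 4 comparisons, and few passed the threshold, an adjusted p (Benjamini-Hochberg over all genes tested) below 0.01 in the quasi-likelihood test of edgeR. All 7 log2 fold changes were negative in nicotine females (median -0.22), in no nicotine females (-0.26) and in no nicotine males (-0.17), and 5 of 7 in nicotine males (-0.06). Among all genes tested, 49.0, 47.9, 46.1 and 47.2% were negative in these comparisons, with medians of 0.00, 0.01, 0.02 and 0.01. The number called lower was 1 of 7 in nicotine females, 2 of 7 in no nicotine females, 1 of 7 in no nicotine males and 0 of 7 in nicotine males, and none was called higher. Over all genes 2.32, 7.03, 7.47 and 0% were called lower and 1.98, 5.03, 6.15 and 0% higher in the same order. Every exposed library lay below every air library for 3 members in nicotine females, 4 in no nicotine females, 1 in no nicotine males and 0 in nicotine males, against 3.6, 6.27, 6.94 and 1.24% of all genes. In nicotine males, where edgeR called no gene, 2203 genes, 1 of them a member (Gabrb1), had an unadjusted p below 0.05, and DESeq2 called 159 genes and no member. The comparisons within a sex share their air libraries. In whole tissue, fewer cells of a type and less RNA per cell cannot be told apart.

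**Figure D2:**
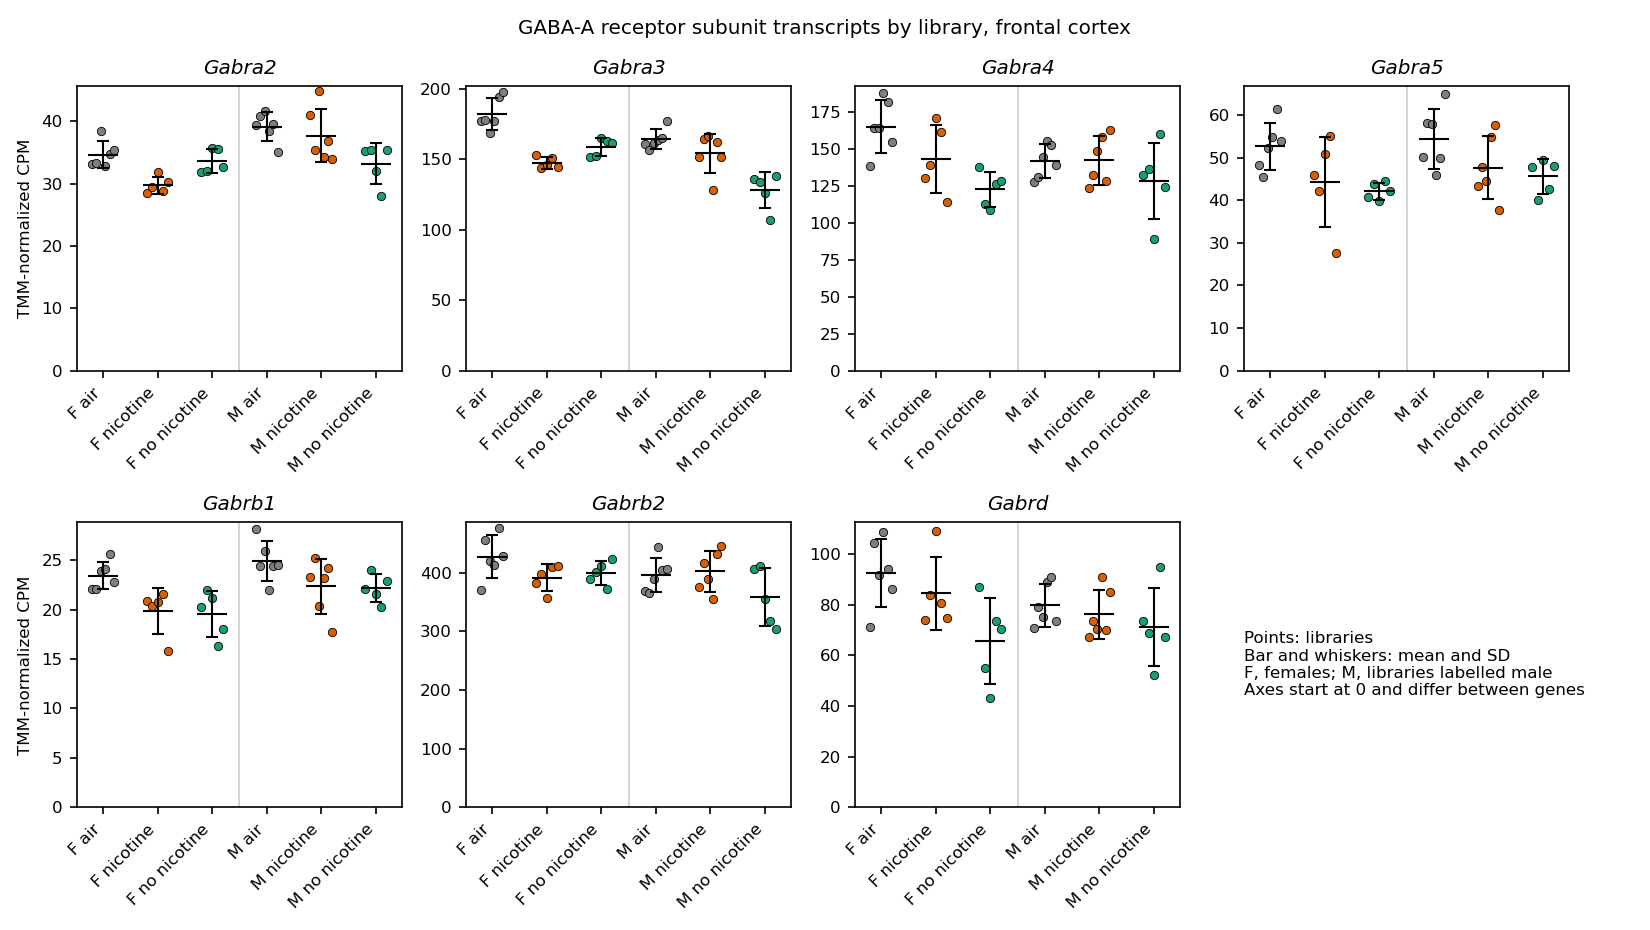
TMM-normalized CPM of each of the 7 subunits in every library of the 6 groups, with the mean and SD as a bar and whiskers and axes from 0. For Gabra3 the female exposed libraries (144 to 165) and the male no nicotine libraries (107 to 138) sit below all air libraries of the same sex (169 to 197 and 157 to 177).

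Gabra3 encodes an α subunit that is prominent in the immature cortex, and it was the member called most often. In air females its lowest, median and highest libraries held 169, 177 and 197 CPM. In nicotine females the 5 libraries held 153, 144, 146, 151 and 144 CPM, and in no nicotine females 152, 153, 165, 163 and 162 CPM. All 10 exposed female libraries were below all 6 air libraries. Gabra3 fell by 0.30 on the log2 scale with nicotine (standard error, SE, 0.0436, adjusted p = 0.000816) and by 0.20 without nicotine (SE 0.0434, adjusted p = 0.00416), which are changes of -18.9% and -12.7%. The means were 182 ± 11.2 (n = 6), 148 ± 4.22 (n = 5) and 159 ± 6.31 CPM (n = 5).

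Among the males, the lowest, median and highest air libraries held 157, 163 and 177 CPM of Gabra3, and the no nicotine libraries held 136, 134, 126, 107 and 138 CPM. These groups did not overlap, and Gabra3 fell by 0.36 (SE 0.0677, adjusted p = 0.000877), a change of -22.0%. The nicotine libraries of males ran from 128 through a median of 157 to 166 CPM and overlapped air, with a difference of -0.09 (SE 0.0642, adjusted p = 0.560, interval of 2 SE from -0.22 to 0.04). Replicate 19, at 128 CPM, was the lowest of them, and replicate 21 held 163 CPM. Without replicate 21 the difference was -0.11 (adjusted p = 0.529).

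Between the aerosols, Gabra3 was 0.27 higher with than without nicotine in males (SE 0.0677, adjusted p = 0.0362), which missed the threshold. Leaving out male nicotine replicate 19 gave 0.32 (adjusted p = 0.00541), and DESeq2 also called it (0.27, adjusted p = 0.00600). Of the 17 fits that left out 1 library, only that without replicate 19 called Gabra3, and adjusted p reached 0.0906. In that comparison 0.248% of all genes were called, and at a threshold of 0.05 Gabra3 was the only member above it, with 2.17% of all genes higher. Without replicate 21 the difference was 0.25 (adjusted p = 0.0777). In females the same comparison gave -0.11 (SE 0.0454, adjusted p = 0.587). The difference of the sexes in the response of Gabra3 missed the threshold. Male minus female, it was 0.20 with nicotine (SE 0.0795, adjusted p = 0.710) and -0.17 without it (SE 0.0813, adjusted p = 0.945).

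Gabra4 and Gabrd encode an α and the δ subunit that are known to assemble together in receptors outside synapses. In females without nicotine both means were below air, and only Gabra4 was called. Gabra4 held 138, 164 and 188 CPM in the lowest, median and highest air libraries, and 138, 113, 109, 126 and 128 CPM in the no nicotine libraries. The highest no nicotine library (137.5 CPM) was just below the lowest air library (138.2 CPM), so the groups touched without overlapping. Gabra4 fell by 0.43 on the log2 scale (SE 0.0985, adjusted p = 0.00511), from 165 ± 18.0 CPM (n = 6) to 123 ± 11.7 CPM (n = 5).

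Gabrd had the largest coefficient of variation of the 7 in 3 of the 6 groups, where it was 14.6, 25.8 and 21.6%. It held 71.0, 92.8 and 109 CPM in the lowest, median and highest air females, and 86.9, 55.0, 43.2, 73.4 and 70.2 CPM in the no nicotine females. Here 2 no nicotine libraries (86.9 and 73.4 CPM) lay above the lowest air library. The difference of -0.49 was the largest of any member in any comparison with air (SE 0.152, adjusted p = 0.0249), yet it missed the threshold. Without no nicotine replicate 1, its highest library, the difference was -0.62 (adjusted p = 0.00540). Only that fit of the 16 that left out 1 library called Gabrd, and adjusted p reached 0.0709 among them.

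With nicotine, neither gene was called in females. The 5 libraries held 131, 140, 171, 161 and 114 CPM of Gabra4 and 74.0, 83.9, 109, 80.7 and 74.7 CPM of Gabrd, both ranges overlapping air. Gabra4 differed by -0.20 (SE 0.0981, adjusted p = 0.182) and Gabrd by -0.13 (SE 0.151, adjusted p = 0.618). In nicotine against no nicotine females, Gabra4 was 0.22 higher (adjusted p = 0.594) and Gabrd 0.36 higher (adjusted p = 0.587), and 0% of all genes were called there by edgeR, with 1267 genes and 4 members (Gabra2, Gabra3, Gabra4 and Gabrd) at an unadjusted p below 0.05 and 0 genes called by DESeq2.

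In males neither gene was called. Gabra4 held 128, 142 and 156 CPM in the lowest, median and highest air libraries, 124, 140 and 163 CPM with nicotine, and 132, 137, 89.1, 160 and 124 CPM without. The no nicotine libraries spanned both ends, with replicate 4 the lowest of all male libraries and replicate 5 above every air library. Gabrd showed the same spread, with 73.4, 68.8, 52.1, 94.8 and 67.3 CPM without nicotine against 70.6 to 91.1 CPM in air. The differences from air were 0.01 with and -0.14 without nicotine for Gabra4 (SE 0.104 and 0.109), and -0.06 and -0.16 for Gabrd (SE 0.111 and 0.117). The tests of the difference between the sexes gave 0.28 for Gabra4 (SE 0.154, adjusted p = 0.945) and 0.32 for Gabrd (SE 0.200, adjusted p = 0.948) without nicotine, and 0% of all genes were called in that test with or without nicotine. At an unadjusted p below 0.05 it held 978 and 742 genes, with 1 member (Gabra3) and 2 (Gabra2 and Gabra3), and DESeq2 called 1 and 0 genes.

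Gabra2, an α subunit of synapses and of the axon initial segment, lay furthest below air in nicotine females and no nicotine males. It passed the threshold in neither. In nicotine females it held 28.5, 29.4, 31.9, 28.8 and 30.2 CPM, all below the lowest of the air libraries, which held 32.8, 34.0 and 38.4 CPM at their lowest, median and highest. The difference of -0.22 (SE 0.0509, adjusted p = 0.0104) fell just short of the threshold. Gabra2 was called there in 2 of 16 fits that left out 1 library, with adjusted p from 0.00634 to 0.0316, and by DESeq2. Without nicotine the females held 31.9, 32.0, 35.7, 35.5 and 32.7 CPM, 3 of them below the lowest air library and 2 within its range, and differed from air by -0.05 (adjusted p = 0.559). Nicotine against no nicotine females gave -0.17 (SE 0.0531, adjusted p = 0.574), and 0% of all genes were called there. The highest nicotine library (31.86 CPM) and the lowest no nicotine library (31.90 CPM) almost met.

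In males without nicotine Gabra2 held 35.2, 35.4, 32.0, 27.9 and 35.3 CPM against 35.0, 39.5 and 41.7 CPM at the lowest, median and highest of air. The difference was -0.24 (SE 0.0755, adjusted p = 0.0275), and the groups overlapped through 1 air library, replicate 39. With nicotine it was -0.06 (SE 0.0718, adjusted p = 0.787). The difference between the sexes was 0.15 with nicotine (adjusted p = 0.825) and -0.20 without it (adjusted p = 0.945).

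Gabra5 encodes an α subunit of mainly extrasynaptic receptors, best known from the hippocampus. In females it ran from 45.4 to 61.4 CPM in air and from 39.7 to 44.5 CPM without nicotine, with no overlap, and differed by -0.32 (SE 0.123, adjusted p = 0.0656). With nicotine the libraries held 45.9, 42.1, 50.8, 55.0 and 27.7 CPM and differed by -0.25 (SE 0.123, adjusted p = 0.195). The library at 27.7 CPM, nicotine replicate 6, widened the spread that all female groups share in the fit. Without it the no nicotine difference was -0.33 with an adjusted p of 0.00535. Only that fit of the 16 that left out 1 library called Gabra5 there, and adjusted p reached 0.139 among them. In males Gabra5 ran from 46.0 to 64.9 CPM in air, from 37.7 to 57.7 with nicotine and from 39.9 to 49.4 without, with differences of -0.19 (adjusted p = 0.383) and -0.26 (adjusted p = 0.0769). The highest nicotine male, at 57.7 CPM, was replicate 21, and without it the nicotine difference was -0.26 (adjusted p = 0.247).

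The β subunits complete the GABA binding site. Gabrb1 was the least abundant member, and in females it held 22.1, 23.4 and 25.6 CPM at the lowest, median and highest of air, 20.9, 20.3, 20.8, 21.6 and 15.8 CPM with nicotine and 20.2, 21.9, 21.2, 16.3 and 18.0 CPM without. All exposed female libraries were below all air libraries. The differences were -0.24 (SE 0.0837, adjusted p = 0.0679) and -0.26 (SE 0.0834, adjusted p = 0.0285), and leaving out nicotine replicate 6 brought the latter to -0.27 with an adjusted p of 0.00864. Only that fit of the 16 that left out 1 library called Gabrb1 without nicotine, and adjusted p reached 0.0776 among them. In males the differences were -0.16 (adjusted p = 0.343) and -0.17 (adjusted p = 0.133), with overlapping groups.

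Gabrb2, the β subunit of the commonest synaptic receptor, ran in females from 371 to 477 CPM in air, from 356 to 412 with nicotine and from 373 to 424 without, and differed from air by -0.13 (SE 0.0590, interval of 2 SE from -0.24 to -0.01, adjusted p = 0.170) and -0.10 (SE 0.0590, interval from -0.22 to 0.02, adjusted p = 0.250). In males the no nicotine libraries held 407, 411, 355, 317 and 303 CPM, of which 3 lay below the lowest air library (366 CPM), and the difference was -0.14 (SE 0.0805, adjusted p = 0.210). With nicotine it was 0.02 (SE 0.0766, interval from -0.13 to 0.18).

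**Figure D3:**
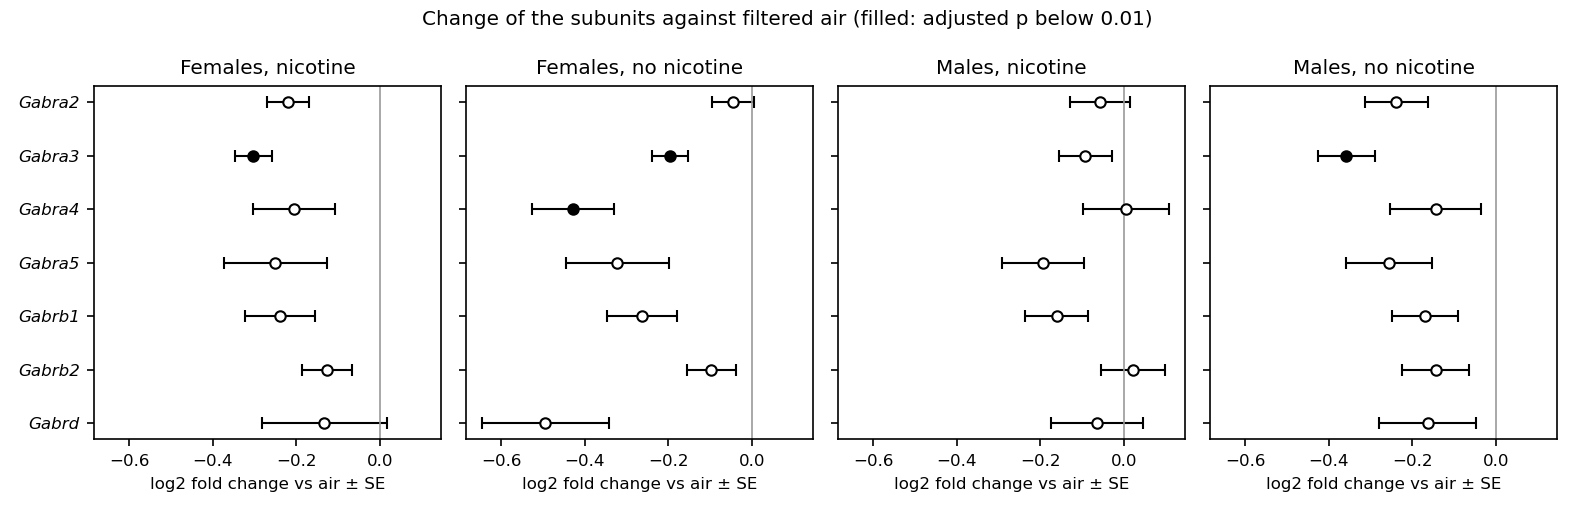
Fitted log2 fold change of each member against air, with whiskers of 1 SE, in the 4 comparisons, filled where the adjusted p is below 0.01. Gabra3 is filled in 3 panels at -0.30, -0.20 and -0.36, Gabra4 in 1 at -0.43, and no member in nicotine males.

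At a threshold of 0.05 the members called lower were Gabra2 and Gabra3 in nicotine females (7.06% of all genes), Gabra3, Gabra4, Gabrb1 and Gabrd in no nicotine females (13.6%), Gabra2 and Gabra3 in no nicotine males (12.2%) and none in nicotine males (0.17%). The calls at 0.01 in no nicotine females changed when single libraries were left out. Gabra3 was lost without air replicate 5 (-0.18, adjusted p = 0.0103), air replicate 6 (-0.17, 0.0113) or no nicotine replicate 2 (-0.19, 0.0127), and Gabra4 without air replicate 4 (-0.39, 0.0130), air replicate 5 (-0.40, 0.0131) or no nicotine replicate 2 (-0.40, 0.0173), 3 (-0.39, 0.0179) or 5 (-0.45, 0.0104). The Gabra3 calls in nicotine females and no nicotine males held in each of the 16 and 17 fits that left out 1 library.

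A further 9 subunit genes are described from the same fit, of which 4 passed the low count filter. Gabra6, Gabrp, Gabrr1, Gabrr2 and Gabrr3 did not, with at most 20 reads in any library. Of the 4 tested, 3 were called higher without nicotine in both sexes, Gabrg1, Gabre and Gabrq, and none was called in either nicotine group. Over all genes 5.03% in females and 6.15% in males were called higher without nicotine. Gabrg1 encodes a γ subunit, while Gabre and Gabrq encode the ε and θ subunits, known mainly from subcortical nuclei. Gabrg3, which encodes another γ subunit, was called in no comparison with air.

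Gabrg1 held 62.6, 69.2 and 77.6 CPM at the lowest, median and highest of air females and 77.0, 105, 95.2, 75.2 and 86.2 CPM without nicotine, 0.34 higher (SE 0.0778, adjusted p = 0.00526). In males it held 65.9 to 78.9 CPM in air and 87.5, 90.9, 94.1, 74.6 and 86.7 CPM without nicotine, 0.28 higher (SE 0.0655, adjusted p = 0.00441). In each sex the ranges overlapped. Leaving out 1 library at a time kept the call in 9 of 16 fits in females and 12 of 17 in males.

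Gabre and Gabrq, which share the X chromosome with Gabra3, went the other way from it. Gabre was counted at 3 to 123 reads per library. It held 0.113 to 0.864 CPM in air females and 0.367, 6.03, 3.86, 1.49 and 3.34 CPM without nicotine, 2.89 higher (SE 0.691, adjusted p = 0.00619), and 0.203 to 0.692 CPM in air males and 2.70, 2.52, 4.75, 0.962 and 1.04 CPM without nicotine, 2.62 higher (SE 0.468, adjusted p = 0.000582). In females replicate 1 stayed within air, whereas in males all 5 libraries were above air. Gabrq was 2.08 higher in females (SE 0.519, adjusted p = 0.00826) and 1.76 higher in males (SE 0.406, adjusted p = 0.00395), at up to 7.36 CPM. These calls held in 9 of 16 and 17 of 17 fits that left out 1 library for Gabre, and in 6 of 16 and 14 of 17 for Gabrq.

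**Figure D4:**
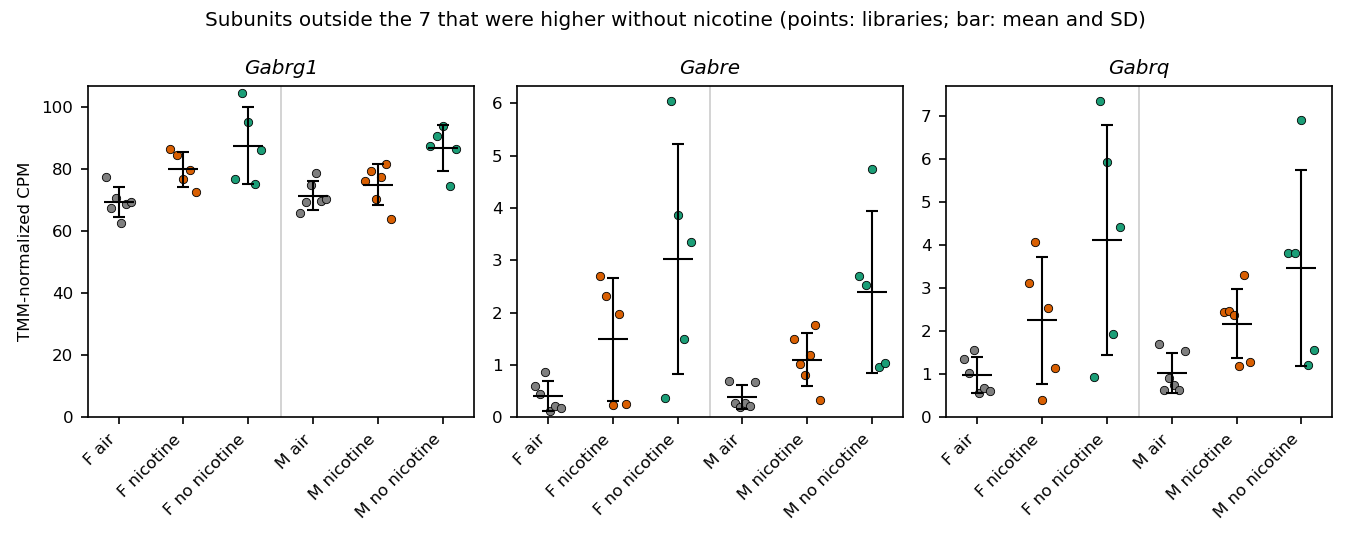
TMM-normalized CPM of Gabrg1, Gabre and Gabrq in every library of the 6 groups, with the mean and SD as a bar and whiskers and axes from 0. The no nicotine libraries spread widely, from 0.367 to 6.03 CPM for Gabre in females, where air reaches 0.864.

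Genes that act around the receptor were called in both directions. Of 20 genes of receptor anchoring and trafficking, 3 rose and 3 fell in no nicotine females, 2 rose and 2 fell in no nicotine males, and none was called with nicotine in either sex. Over all genes 5.03% were called higher and 7.03% lower in no nicotine females and 6.15% and 7.47% in no nicotine males, so the male counts of this list lie near the background. The genes that rose were Gabarap, Hap1 and, in females, Rdx, and those that fell included Slitrk3 in both sexes, Shisa7 in females and Nsf in males. Those of smallest p were Gabarap, a trafficking adaptor of the receptor (0.17 higher, adjusted p = 0.00515, and 0.14 higher, adjusted p = 0.00195), Shisa7, a receptor-associated membrane protein, in females (-0.27, adjusted p = 0.00452), and Nsf, a membrane fusion ATPase, in males (-0.32, adjusted p = 0.000636). Of 9 genes that make, pack, take up or break down GABA, 3 rose in nicotine females, 6 in no nicotine females, 6 in no nicotine males and 0 in nicotine males, and none fell, where 1.98, 5.03, 6.15 and 0% of all genes were called higher. Abat, Gad2, which makes GABA, and Slc32a1, which packs it into vesicles, were among them in all 3. Gad2 was 0.62, 0.79 and 0.65 higher (adjusted p = 0.00771, 0.00111 and 0.000941). Abat, which breaks GABA down, led in females (0.36 and 0.44 higher, adjusted p = 0.00388 and 0.000841), and Slc6a11, a GABA transporter of astrocytes, in males (0.74 higher, adjusted p = 9.64e-05). Of 7 chloride transporters and their kinases, Slc12a2, which loads chloride into cells, was 0.41 and 0.33 higher in nicotine and no nicotine females (adjusted p = 0.000901 and 0.00157), and the kinase Wnk1 also rose in the former. In no nicotine females Wnk2 and Slc12a5 fell, led by Slc12a5, the neuronal chloride extruder (-0.19, adjusted p = 0.00631), and in no nicotine males the kinase Wnk2 fell (-0.23, adjusted p = 0.00289). Several of these calls did not hold in every fit that left out 1 library. In nicotine females the call was kept in 11 of 16 fits for Abat, 8 for Slc32a1, 5 for Gad2 and 5 for Wnk1. In no nicotine females it was kept in 12 of 16 fits for Shisa7 and Slitrk3, 9 for Slc12a5 and Wnk2, 8 for Gabarap and Hap1 and 7 for Rdx, and in no nicotine males in 11 of 17 for Hap1 and 10 for Slitrk3. The other calls named here were kept in every such fit.

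Markers of cell types and regions moved with the exposed groups, alongside the subunits. Over all genes 2.32, 7.03, 7.47 and 0% were called lower in nicotine females, no nicotine females, no nicotine males and nicotine males. Called higher were 1.98, 5.03, 6.15 and 0%. Of 16 markers of cortical glutamatergic neurons, 3 were called lower in nicotine females, 14 in no nicotine females, 13 in no nicotine males and 0 in nicotine males. Their summed level was 9219 to 11729 CPM in air females, 6132 to 8898 with nicotine and 4604 to 8797 without, and in males 8485 to 9672, 6820 to 7895 and 4490 to 7351 CPM, so that every exposed library was below every air library of its sex. Among single genes, 3.6, 6.27, 6.94 and 1.24% lay lower in this way, in the same order of comparisons. All 7 markers of basal forebrain cholinergic neurons and all 6 of oligodendrocytes and myelin were called higher in the same 3 comparisons, and 0 in nicotine males. The cholinergic sums were 20.1 to 79.6, 83.5 to 195 and 109 to 289 CPM in air, nicotine and no nicotine females, and 34.9 to 82.0, 94.5 to 144 and 112 to 238 CPM in males. The myelin sums were 7894 to 9477, 12985 to 16553 and 10610 to 15878 CPM in females and 9068 to 11087, 9323 to 14437 and 13261 to 22672 CPM in males. Of 10 markers of striatal projection neurons, 4, 2, 4 and 0 were called higher in nicotine females, no nicotine females, no nicotine males and nicotine males, with sums of 951 to 2267, 2132 to 2885 and 1843 to 2316 CPM in females and 1289 to 2236, 1455 to 2924 and 1604 to 4160 CPM in males. No marker of any list was at 0 in a whole group, and Camk2a was the most abundant of the cortical markers in all 6 groups. Their part in the subunit and pathway differences was not tested, apart from the fit with the cortical markers.

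The remaining lists held calls in both directions or few calls. Beside them, 2.32, 7.03 and 7.47% of all genes were called lower in nicotine females, no nicotine females and no nicotine males. Called higher were 1.98, 5.03 and 6.15%. Of 11 interneuron markers, 1 fell in nicotine females, 3 fell and 2 rose in no nicotine females, and 3 fell and 1 rose in no nicotine males, with summed levels from 522 to 854 CPM in females and 560 to 791 CPM in males. Of 8 thalamic markers, 3 rose and 1 fell in each female comparison, and 2 rose and 2 fell in no nicotine males. In no nicotine males Oxt, 1 of 3 hypothalamic markers tested, rose, as did Ttr and Clic6 of 5 choroid plexus markers. These lists were uneven across libraries, with hypothalamic sums of 2.45 to 8.44, 3.96 to 10.3 and 4.76 to 14.002 CPM in air, nicotine and no nicotine females and 2.68 to 4.89, 4.26 to 16.1 and 6.72 to 14.5 CPM in males, and choroid plexus sums of 13.0 to 321, 19.3 to 38.1 and 18.99 to 279 CPM in females and 11.9 to 38.0005, 22.2 to 35.0 and 27.5 to 934 CPM in males. Astrocyte, microglia, endothelial and olfactory bulb markers (7, 6, 5 and 5 or 6 tested) were called in no comparison with air.

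When the mean log2 CPM of the 16 cortical markers was added to the fit, the members behaved differently. Gabra3 stood at -0.29 and -0.18 in nicotine and no nicotine females and -0.34 in no nicotine males, with adjusted p of 0.153, 0.818 and 0.347. Gabra4 in no nicotine females went from -0.43 to -0.01 (adjusted p = 0.991), and Gabrd from -0.49 to 0.23 (adjusted p = 0.831). Gabrb1 held -0.22 and -0.24 in the female comparisons, and Gabre and Gabrq in no nicotine females went to -0.19 and -0.78. No member was called under this fit, and over all genes 0, 0 and 13 were called in nicotine females, no nicotine females and no nicotine males. Because the score lay lower in every exposed library than in every air library of its sex, its part in these differences and that of the aerosol cannot be told apart here.

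Within groups, after the group mean was taken from each library's log2 CPM, Gabra4 and Gabrd varied together. Pearson's r was 0.79 over 16 female libraries (Spearman's rho 0.84, and r 0.79 without the 2 libraries farthest from the median of Gabra4) and 0.90 over 17 male libraries (rho 0.87, and 0.79 without such libraries). Over the 21 pairs of members the median r was 0.03 and -0.12, and 7 pairs were positive in both sexes. Points of a pair come from the same library and share its depth and tissue piece, and these values are descriptions with no test.

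**Figure D5:**
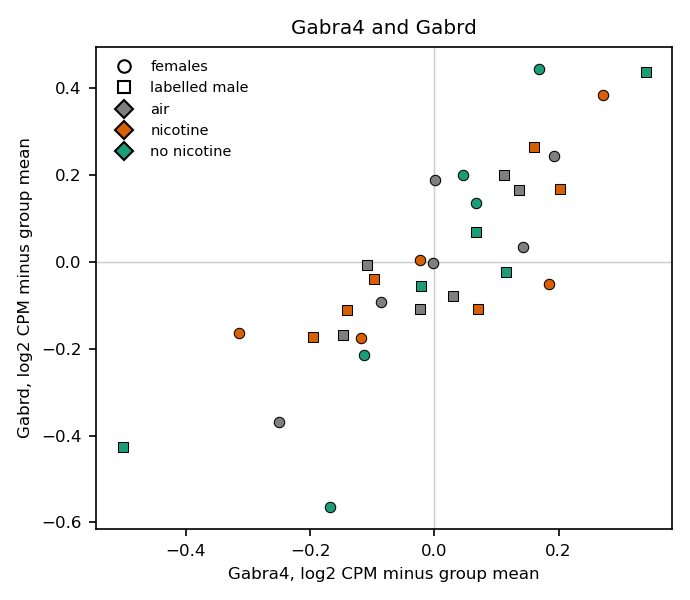
Log2 CPM minus the group mean for Gabra4 against Gabrd, with 1 point per library, circles for females and squares for libraries labelled male, coloured by group. The points run along a rising diagonal, with r of 0.79 in females and 0.90 in males.

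Among 11311 genes of at least 5 CPM on average in both tables, the gene outside the family whose group-centred pattern was most like each member, by the smaller of its female and male r, was Ppp3ca for Gabra4 (0.95 and 0.96) and Ngef for Gabrd (0.96 and 0.92). Cadps was most like Gabrb2 (0.87 and 0.85), Sp8 most like Gabra5 (0.85 and 0.75), D130043K22Rik most like Gabra3 (0.77 and 0.82), Unkl most like Gabrb1 (0.77 and 0.79) and Cdh4 most like Gabra2 (0.63 and 0.79).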

How the data were processed

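RNA of the frontal cortex was sequenced as single reads of 50 bases, with females and males in separate runs, and the 33 labelled libraries are used here. The paper reports that more offspring were sequenced and that outliers in a principal component analysis were excluded. The spread within groups is therefore that of the libraries kept. The authors mapped the reads to the mm9 transcriptome with Bowtie, removed duplicates with Samtools, counted reads per gene with HTSeq and deposited 1 table of raw counts per sex, with 23366 genes each. The deposited normalized tables were not used. Among the columns for females 1 matched no labelled sample and was not used. Total counts ran from 19150562 to 27513174 in females and from 17845672 to 24787955 in males, and replicate pairs of a group differed by more than counting noise (chi-square per degree of freedom 4.57 to 31.7 over 75 pairs).

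Genes whose CPM summed to at least 5 over a table were kept (15158 and 15293), normalized by TMM and tested with edgeR 4.0.16 (R 4.3.3, quasi-likelihood), with the 3 groups of a sex in 1 fit. This test stands in for the DESeq2 test of the study, and DESeq2 1.42.0 was an alternative. P-values were adjusted over all genes tested, and a gene was called at an adjusted p below 0.01. The difference between the sexes was tested over 15105 genes in a fit of the 6 groups. The SE was the log2 fold change over the square root of F. The scripts were tested on simulated data.

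All 7 subunits were named in every comparison, with the called genes of the other subunits and, of the pathway lists, those of smallest p; further genes were named after their values were seen. Some subunit and list genes are not reported here. Members, lists and tests were chosen with earlier results of these data known. Alternatives were other scalings, filters and thresholds, the 2 groups alone, a replicate block, a marker score as covariate and leaving out each library. Figures were drawn with matplotlib 3.10.9. The paper states that 1 pup per litter was used, and does not say whether this held across the sexes. The tests of the difference between the sexes took all libraries as independent.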

Additional observations from a re-analysis of the deposited data

Results flagged for a closer look

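Over 60 sets of a gene and a group, each with 5 or 6 libraries, 2 held a library far from the rest by Dixon's criterion, which chance alone meets in about 1 of 20 sets. Gabrb1 stood at 15.8 CPM in female nicotine replicate 6, where the other 4 libraries held 20.3 to 21.6 CPM. Gabrd stood at 109 CPM in female nicotine replicate 3, where the others held 74.0 to 83.9 CPM.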

How the results depend on the processing

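The number of members called in nicotine females, 1 of 7, was 2 with DESeq2, 2 at an adjusted p below 0.05, 0 with the cortical score as covariate and 1 to 2 when 1 library was left out. In no nicotine females, with 2 called, it was 4, 0 and 0 to 4 under the last 3 of these settings, and 1 with the replicate block, where Gabra3 stood at -0.19 (adjusted p = 0.0170). Over the alternative settings there, adjusted p ran from 0.00517 to 0.968 for Gabra5 and from 0.00858 to 0.831 for Gabrd. Each was thus called under some setting. In no nicotine males, with 1 called, it was 2 at 0.05 and 0 with the covariate. In nicotine against no nicotine males, with 0 called, it was 1 with DESeq2, 1 at 0.05 and 0 to 1 when 1 library was left out. The replicate block changed no other call of a member. Whether the replicate numbers of females pair the samples cannot be decided from 14 same-number pairs. Their deviations had a median correlation of 0.0144, against -0.00398 for other pairs, and 4 were over 0.1. Males share no numbers.

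Counts over all genes also moved. In nicotine females 651 genes were called, against 1319 with DESeq2, 136 with the replicate block, 1888 at 0.05 and 0 with the covariate. In no nicotine females the 1829 genes became 736 with the block, 3791 at 0.05 and 0 with the covariate. In nicotine males the 0 became 159 with DESeq2, 17 with those 2 groups alone and 58 at 0.05. In no nicotine males the 2084 became 3782 at 0.05 and 13 with the covariate. In nicotine against no nicotine males the 38 became 456 with DESeq2, 544 at 0.05, 0 with the 2 groups alone and 7 with the covariate, and 5 without nicotine replicate 21.

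With the cortical score as covariate the direction reversed for Gabra4 (0.11) and Gabrd (0.43) in nicotine females, for Gabrd (0.23), Gabre (-0.19), Gabrq (-0.78), Hap1 (-0.24) and Wnk2 (0.0393) in no nicotine females, for Gabrb2 in nicotine males (-0.0933), for Aldh5a1 (-0.0021) and Gad2 (-0.12) in no nicotine males, and in the difference of the sexes with nicotine for Gabra5 (-0.0196) and Gabrd (-0.14). The cause was not tested.

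Differences near 0 changed sign when 1 library was left out. In nicotine males Gabra4 ran from -0.0377 to 0.0425 and Gabrb2 from -0.0088 to 0.0575. In nicotine against no nicotine females Gabra5 ran from -0.0138 to 0.21, Gabrb1 from -0.0348 to 0.10 and Gabrb2 from -0.0533 to 0.0045, and in males Gabra5 ran from -3e-04 (without nicotine replicate 21) to 0.12 and Gabrb1 from -0.0291 to 0.0697. In the difference of the sexes Gabra5 ran from -0.0788 to 0.14 and Gabrb1 from -4e-04 to 0.13 with nicotine, and Gabrb2 from -0.11 to 0.0031 without. The depth of 3 to 172 reads per library limits Gabre and Gabrq.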
